A study of Mus musculus with 7 samples.

Results

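The nuclear genes of the mitochondrial respiratory chain were scored for nuclease accessible chromatin at their transcription start sites (TSSs) in mouse liver. Members were protein-coding genes on chromosomes 1 to 19 of the GENCODE M1 annotation of mm9 whose symbols start with Nduf, Uqcr, Sdha to Sdhd, Cox4 to Cox8 or Atp5. The rule found 89 gene entries with 88 symbols, of 21410 protein-coding genes on these chromosomes. Ndufb8 is listed under a pair of gene identifiers, and Atp5l-ps1 carries a pseudogene name but is annotated as protein-coding. Of the entries, 71 were structural subunits of complexes I to IV and the ATP synthase. A further 7 were tissue or testis isoforms of cytochrome c oxidase subunits, and 4 were complex I assembly factors. The other 7 entries were Ndufa4l2, the second Ndufb8 entry and 5 genes with such a prefix that were not counted as subunits. The rule used gene symbols and no measured values, but the members were chosen with earlier results of these data known.

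Liver was taken from male C57BL/6 mice at 8 weeks of age. Benzonase and Cyanase, a pair of endonucleases that cut DNA and RNA and work without purified nuclei, were applied to pulverized frozen tissue (3 libraries each, at 0.25, 1 and 4 U), and DNase I was applied to nuclei from fresh tissue (1 listed sample). Benzonase and Cyanase thus share a preparation, while for DNase I the enzyme and the preparation cannot be told apart. The deposited result was 1 list of hotspots per nuclease, called on the pooled tags of all its libraries, where a hotspot is a stretch of genome in which cleavage tags cluster above background. The lists held 60910 (Benzonase), 57675 (Cyanase) and 72286 (DNase I) hotspots with a chromosome, a start and an end, and no tag number, so the depth behind a hotspot is unknown. There is no spread between replicates and no test was possible. Shares are given with 95% Wilson intervals, which cover counting error over genes only, beside the same share over all protein-coding genes. Of 6 hepatocyte genes (Alb, Ttr, Apoa1, Tat, Cps1 and Fgb), all 6 had a TSS inside a hotspot of every nuclease. Of 5 muscle, heart and neuron genes, Actc1 alone had one, in the Cyanase list. Whole liver was used, and the 3 Kupffer cell genes had a TSS in a DNase I hotspot in 3 cases, in a Cyanase hotspot in 1 and in a Benzonase hotspot in 0. Of 3 endothelial genes, Kdr had one in the Benzonase and Cyanase lists and the others in none.

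Complex I (NADH dehydrogenase), complex II (succinate dehydrogenase), complex III (the cytochrome bc1 complex) and complex IV (cytochrome c oxidase) pass electrons from NADH and succinate to oxygen and, except for complex II, pump protons across the inner mitochondrial membrane. The ATP synthase uses the proton gradient to make ATP. Most subunits are encoded in the nucleus, and nuclear respiratory factor 1 (NRF1), the ETS factor GABP, YY1 and the estrogen-related receptors are known regulators of these genes. Liver has abundant mitochondria, while several cytochrome c oxidase subunits have alternative isoforms used in heart and skeletal muscle, lung or testis.

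Promoter sequences are shown for the genes on which the results below turn. Sdhd is shown because its window held matches to the motifs of 3 known regulators. Atp5g1, Atp5g2 and Atp5g3 are shown because they encode the same mature protein from different promoters. Cox6a1 and Cox6a2 are an accessible and an inaccessible isoform, and Cox7a1 is the only muscle isoform whose TSS lay in a hotspot. Among the structural subunit genes, which leave out the tissue and testis isoforms, Ndufc2 alone had no Cyanase hotspot at a TSS. The sequences were read from mm9 on the strand of the gene and end 30 bases into the transcript, counting the TSS base. They begin 220 bases before the TSS, except at Sdhd, where the first exon of the neighbouring Timm8b limited the stretch to 81 bases. The first 30 of these 81 bases lie inside that exon, and the NRF1 match at Sdhd is among them. Adjoining and overlapping matches run together. Capitals mark exact matches on either strand to GCGCANGCG (NRF1), CCGGAAG (ETS and GABP), GGGCGG (SP and KLF), GCCAAT (NFY) or AAGGTCA (estrogen-related receptors, partial).
Sdhd (chr9:50411925-50412035, minus strand): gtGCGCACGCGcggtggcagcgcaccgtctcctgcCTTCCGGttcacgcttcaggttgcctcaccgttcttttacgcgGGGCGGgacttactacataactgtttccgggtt
Atp5g1 (chr11:95936955-95937204, minus strand): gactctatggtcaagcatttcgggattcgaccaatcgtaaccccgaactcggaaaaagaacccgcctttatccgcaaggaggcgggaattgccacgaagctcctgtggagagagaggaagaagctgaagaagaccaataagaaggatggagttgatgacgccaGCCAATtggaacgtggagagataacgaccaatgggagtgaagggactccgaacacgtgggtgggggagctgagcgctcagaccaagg
Atp5g2 (chr15:102501449-102501698, minus strand): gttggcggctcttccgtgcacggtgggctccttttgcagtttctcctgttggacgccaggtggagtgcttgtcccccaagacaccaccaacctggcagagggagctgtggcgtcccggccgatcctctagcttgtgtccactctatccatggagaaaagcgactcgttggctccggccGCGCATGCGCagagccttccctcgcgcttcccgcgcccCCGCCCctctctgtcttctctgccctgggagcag
Atp5g3 (chr2:73749354-73749603, minus strand): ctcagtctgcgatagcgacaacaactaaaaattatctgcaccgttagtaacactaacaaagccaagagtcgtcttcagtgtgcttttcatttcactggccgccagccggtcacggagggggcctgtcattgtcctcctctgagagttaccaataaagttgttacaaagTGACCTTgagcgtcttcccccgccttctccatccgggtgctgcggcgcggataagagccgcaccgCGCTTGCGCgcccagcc
Cox6a1 (chr5:115798961-115799210, minus strand): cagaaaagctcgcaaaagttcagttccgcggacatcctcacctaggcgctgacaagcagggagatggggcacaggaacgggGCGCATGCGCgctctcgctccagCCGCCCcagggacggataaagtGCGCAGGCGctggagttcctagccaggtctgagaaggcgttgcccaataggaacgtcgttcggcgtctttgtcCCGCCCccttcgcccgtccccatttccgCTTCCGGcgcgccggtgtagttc
Cox6a2 (chr7:135349851-135350100, minus strand): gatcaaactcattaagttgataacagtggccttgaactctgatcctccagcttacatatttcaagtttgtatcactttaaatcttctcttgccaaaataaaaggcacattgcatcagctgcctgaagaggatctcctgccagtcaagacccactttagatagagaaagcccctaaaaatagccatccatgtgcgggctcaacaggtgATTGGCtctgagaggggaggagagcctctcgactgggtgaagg
Cox7a1 (chr7:30968970-30969219, plus strand): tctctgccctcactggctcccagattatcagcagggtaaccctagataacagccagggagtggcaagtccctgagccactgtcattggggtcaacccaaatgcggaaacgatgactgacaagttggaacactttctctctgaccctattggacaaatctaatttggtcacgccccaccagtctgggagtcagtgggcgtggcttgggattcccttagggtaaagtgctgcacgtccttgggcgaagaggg
Ndufc2 (chr7:104548293-104548542, plus strand): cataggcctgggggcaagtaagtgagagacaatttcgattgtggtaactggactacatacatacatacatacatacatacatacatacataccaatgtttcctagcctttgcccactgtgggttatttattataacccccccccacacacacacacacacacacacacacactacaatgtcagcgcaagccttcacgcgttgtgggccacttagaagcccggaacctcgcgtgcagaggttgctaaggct

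Nearly every gene of a structural subunit had its start site in accessible chromatin in all 3 assays, and the genes without such a site were mainly the isoforms of other tissues. A TSS of at least 1 protein-coding transcript lay inside a Benzonase hotspot for 80 of the 89 entries (89.9%, interval 81.9 to 94.6), against 58.0% of all protein-coding genes. For Cyanase the number was 79 (88.8%, interval 80.5 to 93.8, against 56.3%), and for DNase I it was 78 (87.6%, interval 79.2 to 93.0, against 48.0%). All 3 nucleases marked the TSS of 77 entries (86.5%, interval 77.9 to 92.1), against 46.7% of all genes. The share for each nuclease was thus above that of all genes, and the gap was wider for DNase I than for Benzonase or Cyanase. No hotspot of any list covered a TSS in 9 entries (10.1%, interval 5.41 to 18.1), against 40.3% of all genes. In tissue of mixed cell types, a site open in few cells and a site weakly open in all cells cannot be told apart.

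Among the 71 structural subunit genes alone, 71 (Benzonase), 70 (Cyanase) and 69 (DNase I) had a TSS inside a hotspot, and 68 (95.8%, interval 88.3 to 98.6) had one of all 3. These shares were near those of other genes that most cells use. Of 77 cytosolic ribosomal protein genes, 73 (94.8%, interval 87.4 to 98.0) had a TSS inside hotspots of all 3 nucleases, as did 38 of 40 proteasome subunit genes (interval 83.5 to 98.6). The intervals of the 3 gene groups overlapped.

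**Figure D1:**
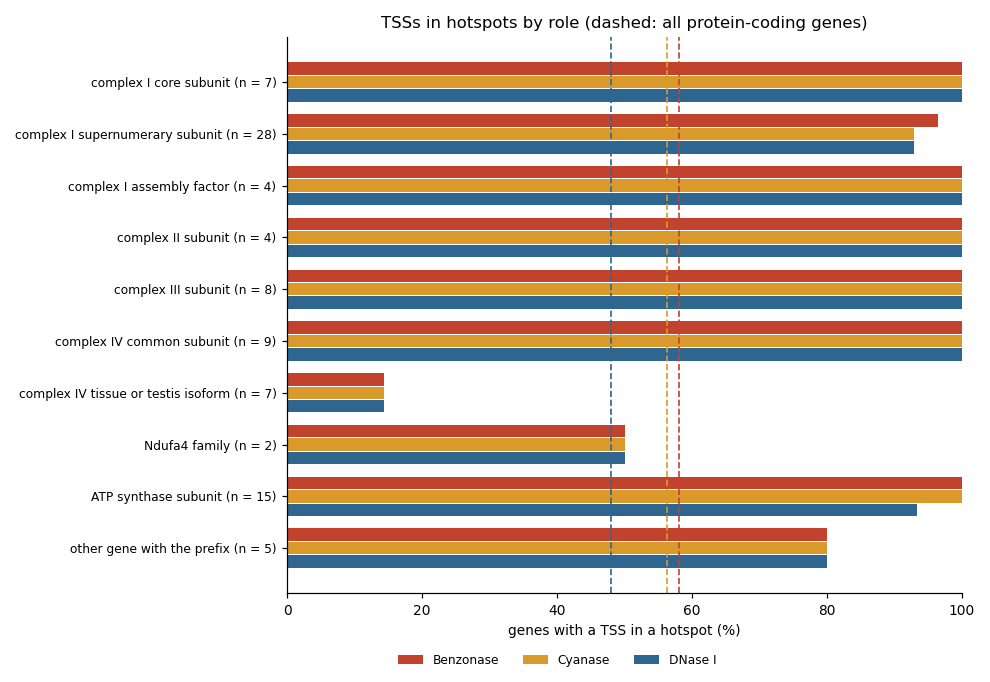
Share of member genes with a TSS of a protein-coding transcript inside a hotspot (x axis, percent), by role of the gene product (y axis, number of genes in brackets) and nuclease (colour); dashed lines give the share of all 21410 protein-coding genes for each nuclease (58.0, 56.3 and 48.0%). Bars reach 92.9% or more in the groups of subunits of complexes I to III, the common subunits of complex IV and the ATP synthase, 50% in the Ndufa4 family and 14.3% in the tissue or testis isoforms of complex IV.

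Widening the search to 1 kb on either side of the TSSs added few members. A hotspot lay within 1 kb of a TSS for 82 entries with Benzonase (92.1%, against 61.7% of all genes), 81 with Cyanase (91.0%, against 59.9%) and 81 with DNase I (91.0%, against 52.5%). All 3 nucleases had a hotspot there in 80 entries (89.9%, interval 81.9 to 94.6, against 50.7% of all genes). Within this window the structural subunit genes had a DNase I hotspot in 71 of 71 cases and a Cyanase hotspot in 70 of 71.

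**Figure D2:**
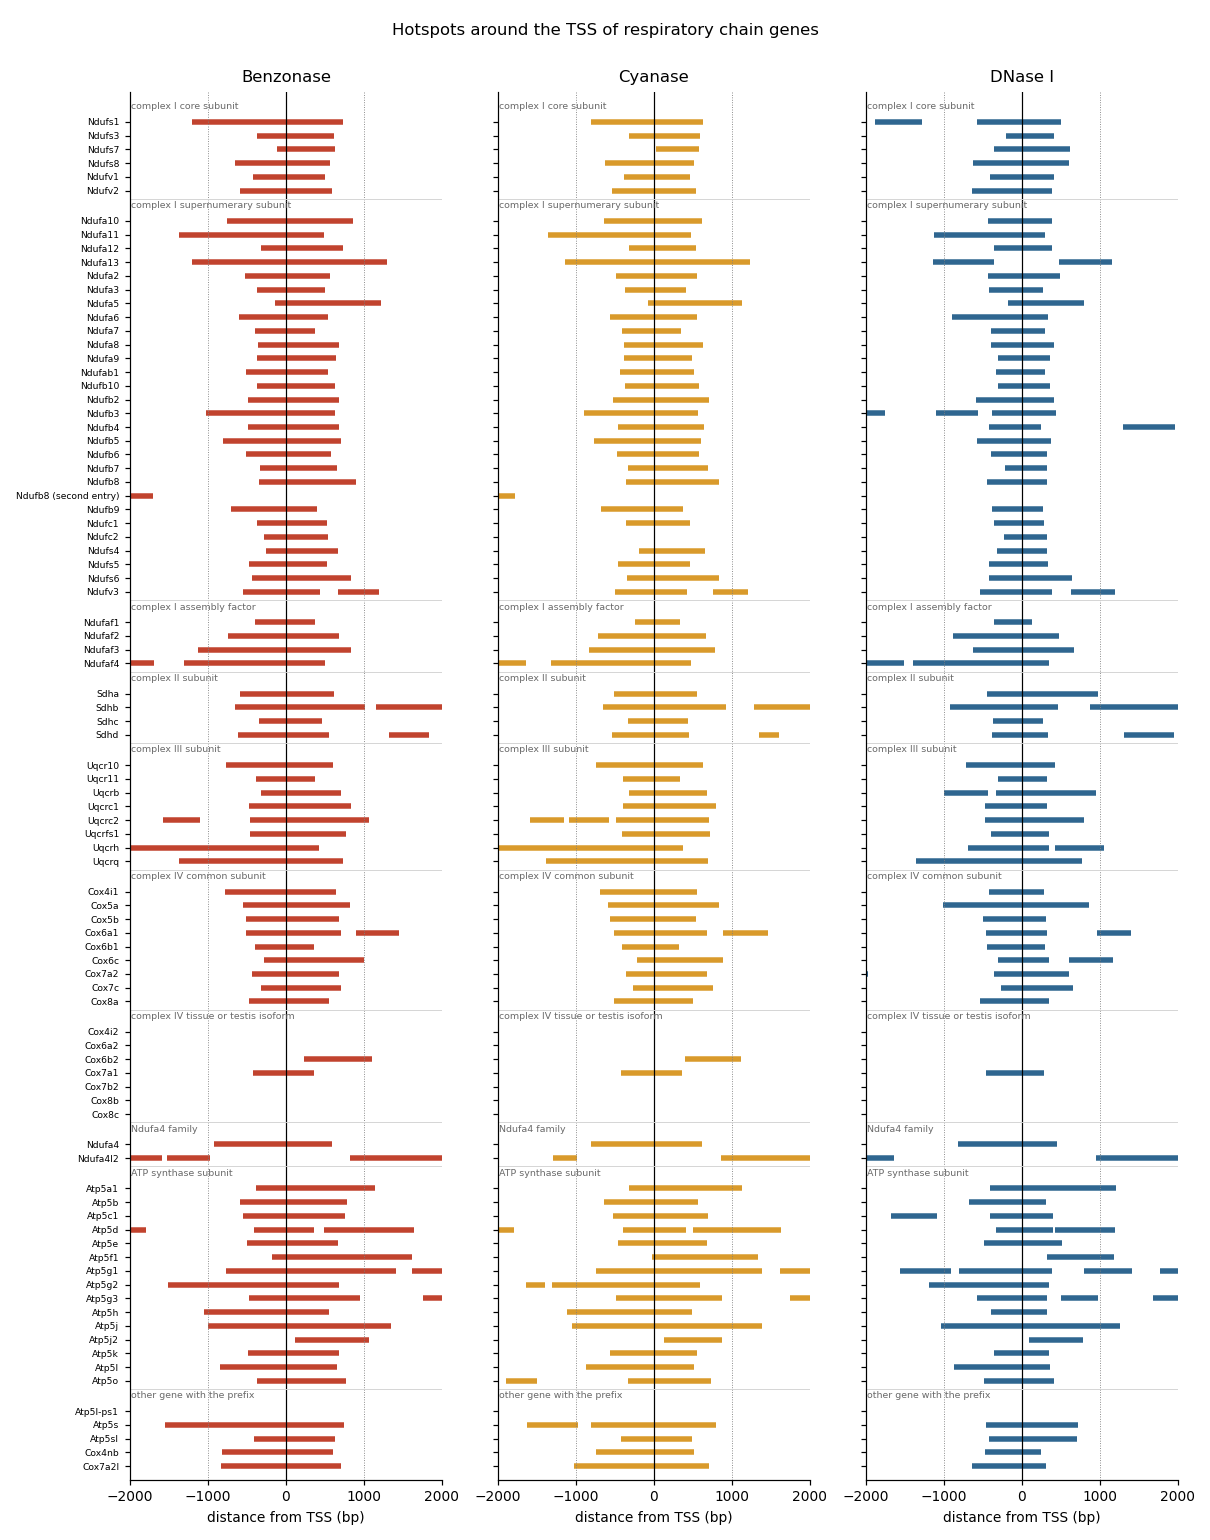
Hotspots within 2 kb of the representative TSS of 88 of the 89 entries, 1 row per entry grouped by role, for Benzonase, Cyanase and DNase I (panels); bars run from the start to the end of a hotspot along the strand of the gene (x axis, distance from the TSS in bp), and dotted lines mark 1 kb. The TSS lies under a bar in nearly all rows, and the rows of the tissue or testis isoforms are mostly empty.

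The 7 genes of the core subunits of complex I, which carry its flavin and iron-sulfur clusters, all had a TSS inside hotspots of all 3 nucleases. At Ndufs1, whose product is the largest core subunit, the Benzonase hotspot (1947 bp, chr1:63222660-63224606) was wider than the Cyanase (1436 bp) and DNase I (1074 bp) hotspots. Eef1b2, a translation elongation factor gene, starts 3 bp away on the other strand there. Ndufs7 is a partial exception among the core subunits. The representative TSS, that of the transcript with the longest coding sequence, lay 111 bp inside the Benzonase hotspot and 347 bp inside the DNase I hotspot, while the Cyanase hotspot (551 bp, chr10:79711890-79712440) began 24 bp downstream of it and covered another annotated TSS of the gene.

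The 28 entries for supernumerary subunits of complex I, which surround the core, had a TSS inside a hotspot in 27 (Benzonase), 26 (Cyanase) and 26 (DNase I) cases. One entry without any hotspot was the second gene identifier of Ndufb8, whose only TSS lies inside the gene and downstream of the main promoter. The nearest Benzonase hotspot, at -1709 bp from this TSS, was the one over the main Ndufb8 promoter. Ndufc2, a membrane arm subunit, had a Benzonase hotspot of 819 bp (chr7:104548236-104549054) and a DNase I hotspot of 553 bp (chr7:104548290-104548842). No Cyanase hotspot lay within 1 kb of this TSS, and the nearest began 10478 bp downstream. The Ndufc2 sequence above holds a CATA repeat followed by a run of C and a CA repeat, and its longest run with a repeated unit of 2 to 4 bases (39 bp) was the longest in the promoter windows of all 89 entries. The run of the next gene, Atp5a1, was 16 bp. Whether the repeats bear on the missing Cyanase hotspot was not tested.

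Ndufa13, also known as GRIM-19, lacked a DNase I hotspot at the TSS and had a pair of DNase I hotspots on either side of it. The Benzonase hotspot (2504 bp, chr8:72425157-72427660) and the Cyanase hotspot (2368 bp, chr8:72425228-72427595) covered the TSS and reached 1300 and 1229 bp into the gene. The nearest DNase I hotspot (785 bp) ended at -351 bp from the TSS, and the gap between the DNase I hotspots was 824 bp. Tssk6, a testis kinase gene, starts 374 bp inside the gene on the other strand, and its TSS also lay in the Benzonase and Cyanase hotspots and not in a DNase I hotspot. The 4 assembly factor genes, whose products build complex I without being part of it, had a TSS inside hotspots of all 3 nucleases. Ndufaf1 had the narrowest hotspots of all members with Cyanase (577 bp) and DNase I (491 bp).

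The 4 genes of succinate dehydrogenase, the enzyme shared by the respiratory chain and the citric acid cycle, were accessible in all 3 assays. Sdha, which encodes the flavoprotein, had hotspots of 1205 (Benzonase), 1071 (Cyanase) and 1415 bp (DNase I). It is 1 of 9 members at which the DNase I hotspot was wider than the Benzonase hotspot. Sdhb, which encodes the iron-sulfur subunit, had hotspots of 1675, 1582 and 1392 bp in the same order. The DNase I hotspot of Sdhb reached further upstream (921 bp, against 656 bp with Benzonase) and less far into the gene (470 bp, against 1018 bp). Sdhc and Sdhd encode the membrane anchors. Hotspots at Sdhc were 818, 768 and 637 bp wide, and those at Sdhd were 1168, 987 and 721 bp wide. In both anchor genes the order of the widths was Benzonase, Cyanase, DNase I, as in the medians over all members.

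All 8 genes of complex III had a TSS inside hotspots of all 3 nucleases, with median widths of 1338 (Benzonase), 1192 (Cyanase) and 1091 bp (DNase I). Uqcrh, the hinge subunit, had the widest Benzonase and Cyanase hotspots of all members, at 2566 bp (chr4:115747254-115749819) and 2511 bp. These hotspots were centred at -860 and -884 bp from the TSS, and Lrrc41 starts 198 bp upstream on the other strand. With DNase I the hotspot at Uqcrh was 1036 bp wide and reached 681 bp upstream, against 2143 bp with Benzonase. Uqcrq, a small subunit of the complex, was wide in every list (2102, 2072 and 2133 bp) and has no other gene start within 1 kb. At the other end of the range, Uqcr11 had hotspots of 765, 729 and 626 bp.

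The 9 common subunits of complex IV on these chromosomes were all accessible in the 3 assays, and their tissue and testis isoforms were not, with 1 exception. Cox4i1, Cox5a, Cox5b, Cox6a1, Cox6b1, Cox6c, Cox7a2, Cox7c and Cox8a had hotspots at the TSS with median widths of 1188 (Benzonase), 1096 (Cyanase) and 811 bp (DNase I). Of the isoforms, only Cox7a1 had a TSS inside a hotspot, so that 1 of 7 (14.3%, interval 2.57 to 51.3) was called in each list, against 58.0, 56.3 and 48.0% of all genes. The same gene was called by all 3 nucleases.

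Pair by pair, Cox4i1 had hotspots of 1422 (Benzonase), 1248 (Cyanase) and 714 bp (DNase I) over its TSS, while the nearest hotspots to Cox4i2, the lung isoform, ended at -11926, -11941 and -11958 bp. Cox6a1 had hotspots of 1223, 1196 and 779 bp, and the nearest to the muscle isoform Cox6a2 ended at -28974, -28983 and -14460 bp. Cox6b1 had hotspots of 764, 733 and 739 bp. The testis isoform Cox6b2 had no hotspot over its TSS, but a Benzonase hotspot of 878 bp began 227 bp inside the gene and a Cyanase hotspot of 723 bp began 401 bp inside it, while the nearest DNase I hotspot was 12659 bp downstream. Cox6b2 was the only member with a Benzonase or Cyanase hotspot and no DNase I hotspot within 1 kb of a TSS, against 11.5% of all genes. Cox8a had hotspots of 1020, 1015 and 890 bp. The nearest hotspots to the muscle isoform Cox8b ended at -2047, -2093 and -2010 bp, and those to the testis isoform Cox8c at -20270, -20340 and -20131 bp. Around Cox7b2, the testis counterpart of the X-linked Cox7b, no Benzonase or Cyanase hotspot lay within 100 kb, and the nearest DNase I hotspot began 93652 bp downstream. The common and the alternative isoforms thus separated without overlap except at Cox7a.

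Cox7a1 encodes the heart and skeletal muscle form of subunit VIIa, and Cox7a2 the form of liver and most other tissues. The Cox7a1 hotspots were 775 (Benzonase), 776 (Cyanase) and 743 bp (DNase I) wide and nearly coincided (chr7:30968772-30969546, chr7:30968773-30969548 and chr7:30968736-30969478). The Cox7a2 hotspots were 1122, 1037 and 962 bp wide. Into the gene, the Cox7a1 hotspots reached 356, 358 and 288 bp, and those of Cox7a2 reached 687, 682 and 610 bp. From 250 bp before the TSS to 50 bp into the gene, Cox7a1 had a GC content of 53.0% and a ratio of observed to expected CpG of 0.333, against 56.7% and 0.833 at Cox7a2. The Cox7a1 and Cox6a2 sequences above hold none of the capitals of NRF1, ETS or estrogen-related receptors, while Cox6a1 holds NRF1 and ETS matches. Cox7a2 also had no match to these motifs from 250 bp before the TSS to 50 bp into the gene. In the same window, 52 of the 89 entries held neither these motifs nor that of YY1, so a missing match is not particular to the isoforms.

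Ndufa4, which was first assigned to complex I and is now placed in complex IV, had hotspots of 1515, 1430 and 1269 bp. Ndufa4l2, its hypoxia-induced relative, had none over the TSS. Hotspots of all 3 nucleases began 822 (Benzonase), 868 (Cyanase) and 960 bp (DNase I) inside the Ndufa4l2 gene, and they were 1476, 1418 and 1266 bp wide.

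All 15 ATP synthase subunit genes had a TSS inside a Benzonase and a Cyanase hotspot, and 14 had one inside a DNase I hotspot. The exception was Atp5f1, which encodes subunit b of the peripheral stalk. There the Benzonase hotspot (1796 bp, chr3:105761403-105763198) and the Cyanase hotspot (1370 bp, chr3:105761674-105763043) reached only 181 and 26 bp upstream of the TSS, and 1614 and 1343 bp into the gene. The DNase I hotspot (856 bp, chr3:105761834-105762689) lay inside the Benzonase hotspot and began 328 bp downstream of the TSS. Wdr77, a gene for a methylosome protein, starts 730 bp inside Atp5f1 on the other strand, and its TSS lay in all 3 hotspots. Atp5f1 and Ndufa13 were the only 2 entries (2.25%, interval 0.618 to 7.83) with a Benzonase or Cyanase hotspot and no DNase I hotspot at a TSS, against 11.7% of all genes. A DNase I hotspot alone was found in 0 entries, near the 0.836% of all genes. Atp5j2 (subunit f) had a TSS in all 3 lists, but the TSS of the transcript with the longest coding sequence was not among them. Its hotspots of 950, 741 and 703 bp began 121, 134 and 92 bp downstream of that TSS and covered both other annotated TSSs.

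Atp5g1, Atp5g2 and Atp5g3 encode the same mature subunit c of the membrane ring with different targeting peptides, and their hotspots differed in width and position. Atp5g1 had hotspots of 2183 (Benzonase), 2128 (Cyanase) and 1190 bp (DNase I), Atp5g2 of 2191, 1901 and 1544 bp, and Atp5g3 of 1431, 1359 and 900 bp. At Atp5g2 the wide hotspots lay upstream, with centres at -420, -353 and -414 bp from the TSS. At Atp5g1 the Benzonase and Cyanase hotspots were centred 318 bp downstream and the DNase I hotspot at -208 bp, since the upstream edges lay close together (773, 745 and 803 bp) and the downstream edges did not (1409, 1382 and 386 bp). Atp5g3 showed the same arrangement with downstream extents of 953, 878 and 330 bp. In the sequences above, Atp5g1 holds an NFY match only, Atp5g2 holds NRF1 and SP matches, and Atp5g3 holds NRF1 and estrogen-related receptor matches.

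The other 5 entries share a prefix with the subunit genes and were not counted as subunits. Cox4nb (the gene of an endoplasmic reticulum membrane complex subunit), Cox7a2l (a supercomplex assembly factor), Atp5s and Atp5sl had hotspots of all 3 nucleases at a TSS, and Atp5l-ps1 had none, with its nearest hotspots ending at -11583, -11604 and -11435 bp. Cox4nb and Cox4i1 start 178 bp apart on opposite strands and share the same hotspot in each list. The 79 entries with a Benzonase hotspot at the representative TSS therefore correspond to 78 hotspots, and the 77 with a Cyanase or a DNase I hotspot to 76 in each case.

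At the members' TSSs the Benzonase and Cyanase hotspots were wider than the DNase I hotspots, and the difference lay on the side of the gene body. The median width at the representative TSS was 1188 bp with Benzonase (quartiles 1014 and 1514 bp, 79 genes), 1134 bp with Cyanase (947 and 1385 bp, 77 genes) and 890 bp with DNase I (718 and 1146 bp, 77 genes). Over all protein-coding genes with such a hotspot the medians were 1257, 1164 and 855 bp. The members were thus not set apart by their widths. The median extent upstream of the TSS was 500 (Benzonase), 490 (Cyanase) and 436 bp (DNase I), and the median extent downstream was 661, 594 and 360 bp. The centre lay at a median of 51.0 and 30.5 bp with Benzonase and Cyanase and of -35.5 bp with DNase I. Over all genes the medians of the centre were 55.5, 39.0 and -63.0 bp.

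Gene by gene, the Benzonase hotspot was the wider in 68 of 77 members (88.3%, against 88.0% of all genes with both), by a median of 268 bp (quartiles 130 and 476 bp). It reached further downstream in 69 of 77 (89.6%, against 88.5% of all genes), by a median of 212 bp, and further upstream in 47 of 77 (61.0%, against 70.2%), by a median of 27.0 bp. The Cyanase hotspot was wider than the DNase I hotspot in 65 of 75 members (86.7%, against 82.6%), reached further downstream in 67 of 75 (89.3%, against 85.3%) and further upstream in 41 of 75 (54.7%, against 62.5%). The shares for width and downstream reach were close to the background, and those for upstream reach were below it, a difference that was not tested. The members at which DNase I gave the wider hotspot than Benzonase included Cox5a (1877 against 1378 bp), where the DNase I hotspot reached 1010 bp upstream.

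**Figure D3:**
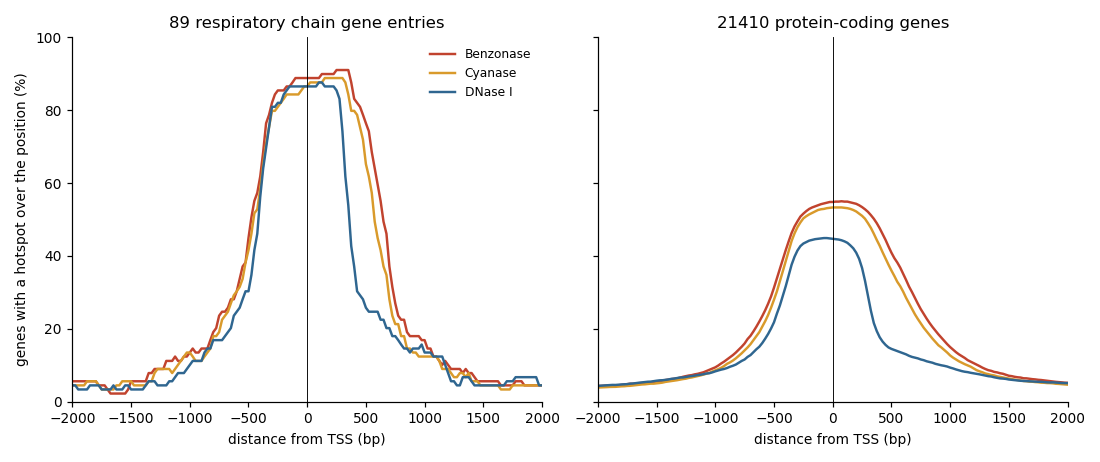
Share of genes with a hotspot over each position (y axis, percent) from 2 kb before to 2 kb after the representative TSS (x axis, bp along the strand), for the 89 entries (left) and all 21410 protein-coding genes (right), by nuclease (colour). At 500 bp downstream of the TSS, 76.4% of the entries lie under a Benzonase hotspot and 25.8% under a DNase I hotspot, while at 500 bp upstream the shares are 44.9 and 30.3%.

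The plot of cover by position shows the same asymmetry. At 500 bp downstream of the TSS, a hotspot covered 76.4 (Benzonase), 65.2 (Cyanase) and 25.8% (DNase I) of the entries, and at 500 bp upstream the shares were 44.9, 41.6 and 30.3%. Over all genes they were 40.9, 36.0 and 14.5% downstream and 31.3, 28.0 and 21.8% upstream. At 1 kb downstream the lists came together, with 16.9, 12.4 and 13.5% of the entries covered, against 15.0, 12.7 and 9.37% of all genes. Of the 2001 bp around the TSS, hotspots covered a mean of 1127 (Benzonase), 1046 (Cyanase) and 893 bp (DNase I) per entry, against 719, 665 and 480 bp per gene over all genes. The hotspots of Benzonase and Cyanase ended beyond the first exon in all 79 and 77 members, and those of DNase I in 73 of 77 (94.8%, against 92.2, 90.5 and 77.0% of all genes with a hotspot and an intron). The first exon had a median length of 168 bp in the members with a Benzonase hotspot.

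**Figure D4:**
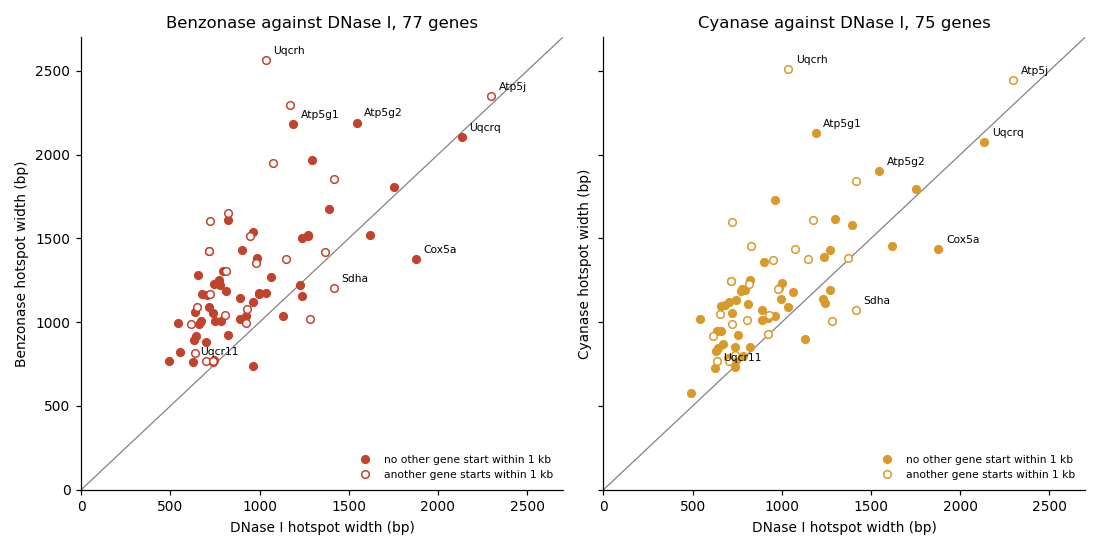
Width of the Benzonase (left) and the Cyanase hotspot (right) at the representative TSS against the width of the DNase I hotspot (axes in bp), 1 point per member; open points have another protein-coding gene start within 1 kb, and the line marks equal widths. Most points lie above the line, 68 of 77 for Benzonase and 65 of 75 for Cyanase.

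The Benzonase and Cyanase hotspots of a member matched each other closely. The stretch common to both made up a median of 92.5% of the stretch covered by either (lowest 66.5%, 77 members), against 68.1% for Benzonase and DNase I (lowest 40.4%, 77 members) and 76.3% for Cyanase and DNase I (lowest 41.3%, 75 members). Over all genes the medians were 91.8, 66.6 and 70.3%. Benzonase was nevertheless wider than Cyanase in 69 of 77 members (89.6%, against 79.2% of all genes), by a median of 72.0 bp (69.0 bp over all genes). In 6 of the 79 members with a Benzonase hotspot at the TSS (7.59%, against 13.0% of all genes), that hotspot spanned 2 DNase I hotspots. They were Ndufb3, Atp5g3, Sdhb, Ndufa13, Atp5g1 and Cox6c, and the gaps between the DNase I hotspots ran from 175 to 824 bp. The Cyanase hotspot spanned 2 DNase I hotspots in 6 of 77 members (7.79%, against 12.1% of all genes). The reverse, a DNase I hotspot over more than 1 Benzonase or Cyanase hotspot, was found at 0 of 77 members, near the background of 1.38 and 1.81% of all genes.

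Some of the widest and most displaced hotspots also covered the start of a neighbouring gene, and others did not. The widest DNase I hotspots were those of Atp5j (2298 bp), Uqcrq (2133 bp) and Cox5a (1877 bp). Atp5j, which encodes coupling factor 6, was also among the 3 widest with Benzonase (2350 bp) and Cyanase (2443 bp), and Gabpa, the gene of the GABP DNA-binding subunit, starts 379 bp inside it on the other strand within the same hotspots. Among the hotspots centred furthest upstream were those of Ndufa11 (-442, -438 and -410 bp), with Vmac 63 bp away, and of Ndufaf4 (-407, -420 and -520 bp), with no other gene start within 1 kb. Those centred furthest downstream were Atp5f1 with Benzonase and Cyanase (716 and 658 bp), Ndufa5 (539, 531 and 318 bp) and Atp5a1, the gene of subunit alpha in the catalytic head (380, 408 and 398 bp). The narrowest Benzonase hotspots were those of Ndufs7 (739 bp), Cox6b1 (764 bp) and Uqcr11 (765 bp), and the narrowest DNase I hotspots after Ndufaf1 were those of Ndufb7 (543 bp) and Ndufc2 (553 bp).

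A TSS of another protein-coding gene on the opposite strand lay within 1 kb of the TSS of 27 of the 89 entries (30.3%, interval 21.8 to 40.5), against 11.4% of all genes, 18.2% of the ribosomal protein genes (interval 11.2 to 28.2) and 8 of 40 proteasome genes (interval 10.5 to 34.8). The intervals of the 3 gene groups overlapped. The median distance was 108 bp. A single hotspot covered both start sites in 26 (Benzonase), 25 (Cyanase) and 24 (DNase I) of the 27 cases, against 87.6, 86.1 and 76.8% of all genes with such a neighbour. Cox4i1 and Cox4nb are each other's neighbour, so their pair and its hotspot are counted from both sides. The shares over all genes were also counted by gene and not by pair. Examples are Sdhd with Timm8b (an inner membrane import chaperone, 52 bp), Ndufb5 with Mrpl47 (a mitochondrial ribosomal protein, 20 bp), Ndufa7 with Rps28 (a cytosolic ribosomal protein, 29 bp), Sdha with Ccdc127 (29 bp) and Ndufaf2 with Ercc8 (a DNA repair gene, 113 bp). No list had a common hotspot at Atp5d, whose partner Dos starts 622 bp away. The DNase I list also lacked one at Atp5f1 and Ndufa13, and the Cyanase list at Ndufa5. Median widths at the 27 entries with an opposite gene start were 1374 (Benzonase), 1248 (Cyanase) and 923 bp (DNase I, 25 entries), against 1167, 1113 and 857 bp at members with no other gene start within 1 kb. The median extents upstream were 698 and 672 bp with Benzonase and Cyanase, against 474 and 456 bp. With DNase I the upstream extents were 421 against 440 bp and the downstream extents 406 against 356 bp. At the entries with an opposite gene start, the downstream medians with Benzonase and Cyanase were 622 and 563 bp. The gap between these medians and those of DNase I was thus wider upstream than downstream there. In the members with no other gene start nearby, the downstream medians were 674 and 608 bp with Benzonase and Cyanase against 356 bp with DNase I.

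Set against all genes, accessible or not, the members' promoters were rich in CpG dinucleotides at an ordinary GC content. From 250 bp before the TSS to 50 bp into the gene, the GC content had a median of 56.0% in members and of 56.0% in all genes. The ratio of observed to expected CpG had a median of 0.785 in members and 0.560 in all genes. The 200 bp centred on the TSS met the criteria of a CpG island (GC over 50% and a ratio over 0.6) in 73 of the 89 entries (82.0%, interval 72.8 to 88.6), against 10698 of 21410 genes, 84.4% of the ribosomal protein genes and 92.5% of the proteasome genes. Members with a DNase I hotspot at a TSS had a median ratio of 0.833 (78 entries), and those without one had 0.432 (11 entries). Over all genes these medians were 0.777 and 0.284. The median GC content of the members with a DNase I hotspot at a TSS was 56.5%, against 60.7% in all genes with one. Set against accessible genes only, the members' promoters were thus poorer in GC, a difference that was not tested. With island criteria met, 69 of 73 members had a DNase I hotspot at a TSS (94.5%, against 73.2% of all genes with them), 70 a Benzonase hotspot (95.9%, against 88.4%) and 69 a Cyanase hotspot (94.5%, against 86.3%). Without them, 9 of 16 members had a DNase I hotspot (56.2%, against 22.8%), and 10 of 16 a Benzonase and 10 of 16 a Cyanase hotspot (62.5%, against 27.7 and 26.4%). Cox6c, Cox7c, Atp5l and Atp5g1 were accessible in all 3 assays without meeting the criteria, and the isoforms Cox4i2 and Cox8c met them without a hotspot.

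**Figure D5:**
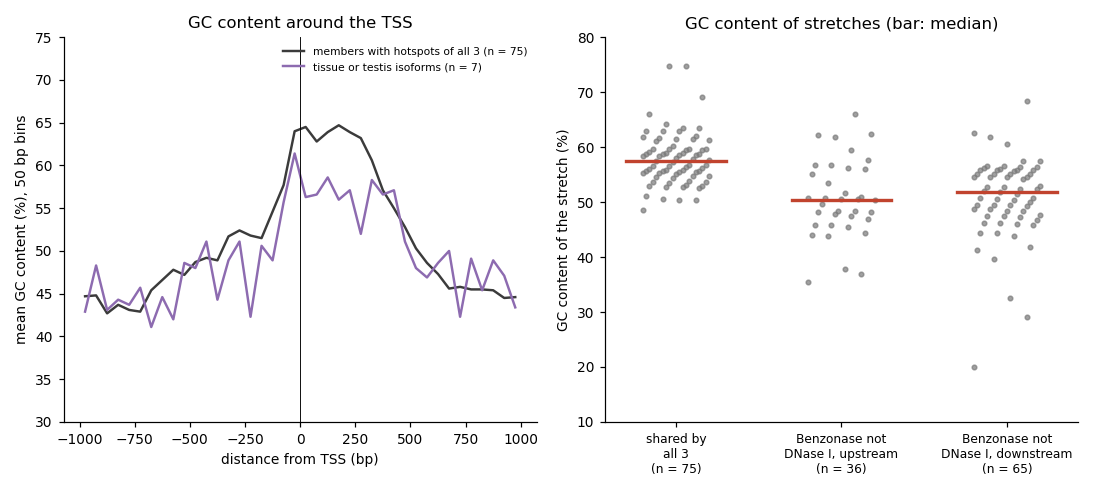
Left, mean GC content (y axis, percent) in 50 bp bins from 1 kb before to 1 kb after the TSS (x axis) for the 75 members with hotspots of all 3 nucleases and for the 7 tissue or testis isoforms. Right, GC content (y axis, percent) of the stretch shared by all 3 hotspots and of the stretches in the Benzonase but not the DNase I hotspot, 1 point per member; bars are medians (57.5, 50.4 and 51.9%).

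In the 75 members with hotspots of all 3 nucleases at the representative TSS, the stretch common to the 3 had a median GC content of 57.5% and a median length of 824 bp. The stretch in the Benzonase but not in the DNase I hotspot on the downstream side was at least 50 bp long in 65 members and had a median GC content of 51.9% (median length 239 bp). It was poorer in GC than the common stretch in 55 of these 65, against 73.8% of 7667 genes. Over all genes the medians were 59.7% for the common stretch and 56.0% for the downstream stretch. The reverse case, a stretch of at least 50 bp upstream in the DNase I but not in the Benzonase hotspot, occurred in 13 of the 75 members (against 15.5% of all genes) and had a median GC content of 43.1% (41.2% over all genes). The mean GC content around the TSS was highest in the bin centred 175 bp downstream (64.7%), against 51.5% in the bin centred at -175 bp. The GC-rich part of the promoter thus extended further into the gene than upstream, and whether GC content bears on the extent of the hotspots was not tested.

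Motifs of the known regulators were searched as exact letters on either strand, from 250 bp before the TSS to 50 bp into the gene. The NRF1 motif (GCGCANGCG) occurred in 18 of the 89 entries (20.2%, interval 13.2 to 29.7), against 8.19% of all promoters of this length and 15.0% of those with a TSS in hotspots of all 3 nucleases. They included Sdha, Sdhd, Uqcr11, Uqcrc1, Cox6a1, Atp5g2 and Atp5g3. The ETS and GABP motif (CCGGAAG) occurred in 17 entries (19.1%, interval 12.3 to 28.5), against 11.1% of all promoters and 19.7% of the accessible ones. The partial motif of the estrogen-related receptors (AAGGTCA) occurred in 9 entries (10.1%, interval 5.41 to 18.1), against 3.87 and 3.13%. These were Atp5e, Atp5g3, Atp5l, Ndufb2, Ndufb4, Ndufs1, Ndufs5, Sdhd and Uqcrq. AAGGTCA is not a full site, so these letters alone do not name the receptor. The YY1 motif (AANATGGCG) occurred in 7 entries (7.87%, interval 3.86 to 15.4), against 3.19 and 5.73%. CCGGAAG and AAGGTCA can share the letters AAG where they meet. Each entry with at least 1 of these 4 motifs had a TSS in hotspots of all 3 nucleases, against 85.3 (NRF1), 82.9 (ETS and GABP), 83.8 (YY1) and 37.8% (estrogen-related receptors) of all genes with the motif. Most entries were accessible in any case, since 86.5% of all 89, with or without a motif, had such a TSS.

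At least 1 of these 4 motifs was present in 37 entries, and 52 had none, while 23.1% of all promoters and 37.2% of the accessible ones held at least 1. Sdhd, Atp5h and Atp5l held 3 of them. Counting the TSS base as 0, the Sdhd NRF1 match began at -79, inside the first exon of Timm8b, and the ETS match at -46. The estrogen-related receptor match began 36 bp after the TSS, which is beyond the printed stretch. Cox6a1 held NRF1 matches at -139, -138 (overlapping, on opposite strands) and -94 and an ETS match 7 bp after the TSS. Set against the accessible promoters of all genes, the ETS share of the 77 accessible entries (22.1%, against 19.7%) was near the background, and those of NRF1 (23.4%, against 15.0%), YY1 (9.09%, against 5.73%) and the estrogen-related receptors (11.7%, against 3.13%) were above it. The intervals over all 89 entries included the accessible background for NRF1 and YY1 and not for the estrogen-related receptors. These intervals also cover entries that were not accessible in all 3 assays, and none was taken for the 77 accessible entries alone. The SP and KLF motif (GGGCGG) was the opposite case, with 46.1% of the entries against 44.9% of all promoters, and 48.1% of the accessible entries against 64.9% of all accessible promoters. The NFY motif (GCCAAT) occurred in 22.5% of the entries (against 16.1% of all promoters) and in 22.1% of the accessible entries (against 21.4% of accessible promoters). TATAAA occurred in 10.1% (against 13.5%) and, among accessible promoters, in 9.09% (against 6.73%), so that its direction depended on the background. A match says only that these letters stand in the window, and no binding was measured here.

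A list of 32 genes that serve the chain and are outside the naming rule was also scored. Among them were Cycs and Cyc1 (the cytochromes c and c1), assembly factors, the ADP and phosphate carriers and the regulators Nrf1, Gabpa, Esrra, Tfam and Ppargc1a. A TSS lay inside a Benzonase hotspot in 31, a Cyanase hotspot in 31 and a DNase I hotspot in 30 of the 32, against 58.0, 56.3 and 48.0% of all genes. Sco2, a copper chaperone of complex IV, had none, and Slc25a4, the heart and muscle form of the ADP carrier, had Benzonase (994 bp) and Cyanase (843 bp) hotspots and no DNase I hotspot. Median widths in the list were 1421 (Benzonase), 1370 (Cyanase) and 1052 bp (DNase I). The widest hotspots were those of Ppargc1b, a coactivator of the estrogen-related receptors, at 3466 bp with Benzonase and 3269 bp with Cyanase against 622 bp with DNase I.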

How the data were processed

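Accessible chromatin was mapped in mouse liver with Benzonase and Cyanase (pulverized frozen tissue) and DNase I (nuclei of fresh tissue). Tags had been mapped to mm9 (Eland, Bowtie), combined by nuclease, adjusted for input and turned into hotspots by the authors. The deposited files hold positions of these hotspots in bp and no count, depth or score, and the DNase I header names 2 libraries, of which the labels list 1. Columns that belong to no group numbered 0. Positions are printed counting from 1. Over the lists together, 2 hotspots end past their chromosome and touch no member.

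A gene was counted when at least 1 TSS of a protein-coding transcript (GENCODE M1) lay inside a hotspot. Widths, centres and extents were measured at the representative TSS, that of the transcript with the longest coding sequence, with ties going to the 5′-most. Distances are signed along the gene, with negative values upstream. Sequences were read from NCBIM37. Python 3.11.15, numpy 2.4.6, pandas 2.3.3, scipy 1.17.1 and matplotlib 3.10.9 were used. In a simulation, 2977 of 2977 hotspots planted at 2000 genes were recovered with their extents. Each was scored alone, so this checks only the arithmetic of the scoring.

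Genes were named by a rule: members lacking a hotspot, the 3 widest, narrowest and furthest displaced per list, succinate dehydrogenase, isoform pairs of cytochrome c oxidase, the subunit c genes and examples of shared promoters. Some other genes were named after their values were seen (Cox6c, Cox7c, Atp5l, Atp5h, Ppargc1b and those with motifs, repeats or several DNase I hotspots). The members and lists were chosen with earlier results of these data known. The values of 1 gene are not reported here.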

Additional observations from a re-analysis of the deposited data

How the results depend on the processing

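Of 94 alternative values, 81 stayed within the interval of the reported value or, for counts, within 1.5 times of it. Counting structural subunits only raised the share with a TSS in a hotspot to 100 (Benzonase), 98.6 (Cyanase), 97.2 (DNase I) and 95.8% (all 3). Counting a DNase I hotspot anywhere within 1 kb of a TSS took the number of entries with a Benzonase or Cyanase hotspot at a TSS but no DNase I hotspot from 2 to 0. With stricter island criteria (500 bp, GC over 55% and a ratio over 0.65), 59.6% of the entries had an island, against 43.4% of all genes, 77.9% of the ribosomal protein genes and 82.5% of the proteasome genes. In a window of 1 kb on either side, motif shares rose to 33.7 (NRF1), 38.2 (ETS), 83.1 (SP), 30.3 (YY1), 50.6 (NFY), 60.7 (estrogen-related receptors) and 62.9% (TATAAA), against 14.3, 24.7, 66.3, 7.72, 48.4, 29.3 and 59.2% of all genes. The longer window by itself holds more matches. Leaving out the second Ndufb8 entry and Atp5l-ps1 was chosen after seeing the data, and it kept the shares within their intervals. No paired analysis was possible because each nuclease has 1 list of pooled tags. Depth was not among the values, so a missing hotspot says only that none was called at the depth and threshold of that list.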

Other observations

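Members on chromosome X were outside the naming rule and were scored in the same way. Ndufa1 and Ndufb11 (supernumerary subunits of complex I) and Cox7b (a common subunit of complex IV) all had a TSS inside hotspots of all 3 nucleases. Hotspot widths at Ndufb11 were 1681 (Benzonase), 1537 (Cyanase) and 842 bp (DNase I), and those at Ndufa1 were 957, 772 and 627 bp. At Cox7b the DNase I hotspot was the widest (982 bp, against 900 bp with Benzonase and 761 bp with Cyanase), and it also reached furthest into the gene (612 bp, against 450 and 440 bp).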
